A study of Homo sapiens with 30 samples.

Results

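The genes described here carry Wnt secretion and the β-catenin branch of Wnt signaling in PANC-1 tumoroids: WLS, PORCN, CTNNB1, AXIN2, TCF7L2, LRP5, LRP6, LGR4, RNF43 and ZNRF3. These 10 genes, of 60483 in each expression table, were chosen as a named list after WLS had been seen to be higher in tumoroids with plain droplets than in tumoroids without droplets. All 10 were among the 18424 genes kept by the filter on low counts. Wnt proteins receive a lipid from PORCN and are carried to the cell surface by WLS. At the receiving cell they bind a Frizzled receptor together with LRP5 or LRP6, which stops the destruction complex, to which AXIN2 belongs, from marking β-catenin (CTNNB1) for degradation, so that β-catenin can act with TCF7L2 and related factors in the nucleus. RNF43 and ZNRF3 are ubiquitin ligases that remove Frizzled from the surface, and LGR4 with its R-spondin ligands takes these ligases away, a control point that is often disturbed in pancreatic cancer.

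PANC-1 is an established human line of pancreatic ductal carcinoma cells, and its genotype is labeled wild type in every sample. The cells were aggregated into 3D cultures on low-adhesion plates, alone or together with DSLBs, droplets of oil under a supported lipid membrane that serve as synthetic cells. RNA was sequenced from 30 libraries in 10 groups of 3 biological replicates. In 7 groups the DSLBs carried recombinant PD-1 and a second immune protein (one of ICOS, CD40L, CTLA4, LAG3, TIGIT, CD27 and CD2), in 1 group PD-1 alone, and the negative controls were hybrids with plain DSLBs and DSLB-free tumoroids. The cultures are of a single cell line and hold no immune cells, and every protein-coated DSLB carried PD-1, so that an effect of PD-1 and one of any protein on the droplet surface cannot be told apart. The study used the second proteins to ask how PD-1 contact is changed by a co-presented receptor, each against PD-1 alone.

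Between about 21904000 and 60506700 reads were counted per library, with 1.71 to 7.001% of them mitochondrial. In 4 libraries (PD-1/LAG3 replicate 3, PD-1/CTLA4 replicate 2, PD-1 replicate 1 and DSLB-free replicate 2) the counts lay over 3 times farther from the nearest library of the group than the other pair lay from each other, and results were repeated without them. The 6 epithelial markers (KRT7, KRT8, KRT18, KRT19, EPCAM and CDH1) summed to between 5840 and 6610 TPM (a level scaled to library size and to transcript length) in the 24 PD-1-bearing libraries, 4560 to 4930 TPM in plain DSLB hybrids and 4580 to 5430 TPM in DSLB-free tumoroids. The fibroblast markers COL1A1, DCN and LUM, of which COL1A1 gave nearly all, summed to 131 to 250 TPM, 300 to 339 TPM and 321 to 403 TPM in PD-1-bearing libraries, plain DSLB hybrids and DSLB-free tumoroids. The 4 T cell markers summed to 0.7 to 1.52 TPM in the PD-1-bearing libraries, 1.01 to 1.54 TPM in plain DSLB hybrids and 0.69 to 1.11 TPM in DSLB-free tumoroids. In bulk RNA, fewer cells that express a gene and less of its RNA per cell cannot be told apart.

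Set side by side on the TPM scale, LRP5 and CTNNB1 were the most abundant of the genes, with medians over the 30 libraries of 141 and 133 TPM. LGR4 followed with 46.1, WLS with 31.5 and TCF7L2 with 18.6 TPM. PORCN and LRP6 had medians of 9.2 and 8.9 TPM, and RNF43, ZNRF3 and AXIN2 of 2.89, 2.13 and 1.83 TPM. LRP5 thus stood far above LRP6, the other Wnt co-receptor, in every library, between 121 and 189 TPM against 5.74 to 15.9 TPM. The uncertainty that the read assignment reported for a count was at most 3.84 reads for any of the genes and 0 for 5 of them, including WLS and LRP6.

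LRP5 is shown by its promoter because it was the only one of the genes to pass the edgeR test of any difference among the 8 PD-1-bearing groups. It lies at chr11:68312591-68449275 on the plus strand (GRCh38), and the 250 bases before its start, chr11:68312341-68312590 on the plus strand (RefSeq, GRCh38.p14), are 87.2% G and C. No part of it is in capitals, because neither CTTTGA, the core of the TCF/LEF motif, nor its reverse complement occurs in it.
LRP5 promoter: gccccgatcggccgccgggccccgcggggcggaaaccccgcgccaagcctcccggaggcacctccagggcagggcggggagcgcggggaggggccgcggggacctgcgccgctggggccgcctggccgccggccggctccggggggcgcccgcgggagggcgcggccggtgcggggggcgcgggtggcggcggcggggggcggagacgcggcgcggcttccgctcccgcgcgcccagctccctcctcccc
RefSeq windows of 250 bases before to 50 after a gene start were at hand for 7 of the 10 genes, in 12 windows, and CTTTGA occurred on either strand in 1 of them, a window of PORCN, against 4536 of all 35116 windows (12.9%). The longer CTTTGAT, which contains the shorter motif, occurred in none of the 12 and in 2.62% of all windows.

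WLS, the carrier of Wnt proteins (chr1:68098473-68233120, minus strand), was the reason for choosing the list, so its values with and without droplets are a description. It had 38.7, 36.4 and 39.0 CPM (counts scaled to a common library size, with sizes adjusted by TMM) in plain DSLB hybrids, against 31.2, 29.8 and 30.8 CPM in DSLB-free tumoroids. Every plain DSLB hybrid was above every DSLB-free tumoroid, and the log2 fold change was 0.32 (standard error 0.05). In that contrast 2 of the 18424 genes (0.0109%) had an adjusted p under 0.05, and nothing is read from this beside a gene chosen on it. The other 9 genes had log2 fold changes between −0.15 (LRP5) and 0.29 (RNF43) in the same libraries.

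With PD-1 on the droplets, the CPM of WLS lay above the DSLB-free level. This is again a description, because the gene was chosen on those same DSLB-free libraries. The 24 PD-1-bearing libraries had a lowest value of 37.7, a median of 40.5 and a highest of 44.6 CPM, all above the DSLB-free tumoroids, with part of them in the range of the plain DSLB hybrids. On the TPM scale the PD-1-bearing and DSLB-free values overlapped. PD-1/CD27 replicate 2 (27.7 TPM) and PD-1/TIGIT replicate 2 (27.9 TPM) were below DSLB-free replicate 2 (28.5 TPM), a library that stood apart. PD-1 hybrids had 44.6, 39.8 and 39.3 CPM, of which replicate 1, a library that stood apart, was the highest. The group means ran from 38.4 ± 0.778 CPM in PD-1/TIGIT hybrids to 42.4 ± 0.634 CPM in PD-1/CTLA4 hybrids (SD, n = 3 each). Over plain DSLB hybrids the log2 fold change of WLS was 0.12 (standard error 0.05) in PD-1 hybrids, 0.06 without the libraries that stood apart, and 0.09 (standard error 0.04) in the mean of the 8 PD-1-bearing groups, where it was −0.05 on the log2(TPM + 0.5) scale. All these comparisons share the plain DSLB or DSLB-free libraries on which the gene was chosen, and they were not tested.

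**Figure D1:**
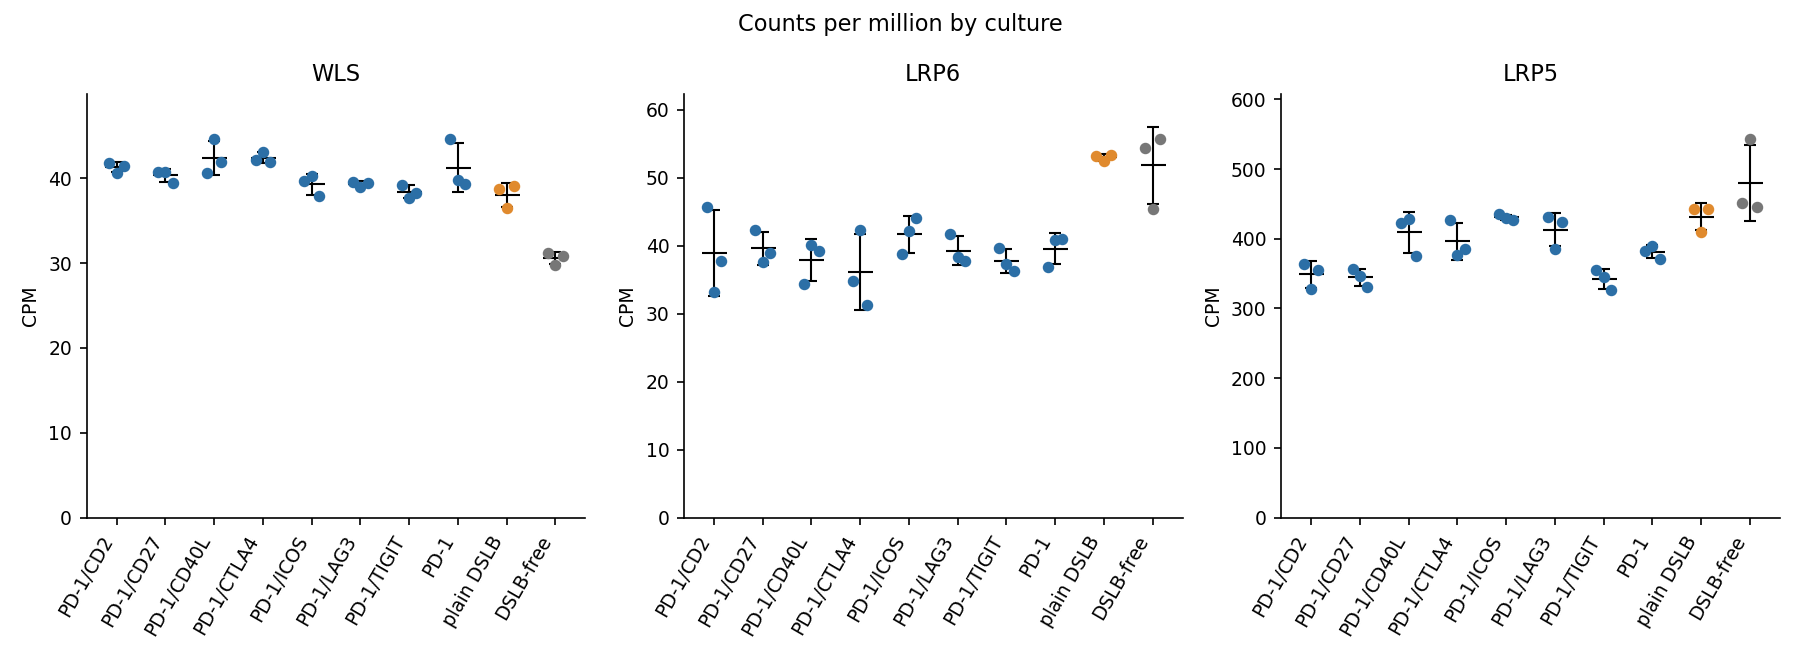
CPM (TMM-scaled) of WLS, LRP6 and LRP5 in each of the 30 cultures by group, with the mean and SD of 3 replicates as black marks. WLS lies at 36.4 CPM or more in every hybrid and between 29.8 and 31.2 CPM in the DSLB-free tumoroids, LRP6 is lower in every PD-1-bearing culture than in every plain DSLB hybrid, and LRP5 is high with ICOS and low with TIGIT, CD27 and CD2.

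With PD-1 on the droplets, LRP6 fell. LRP6 (chr12:12116025-12267044, minus strand), the less abundant Wnt co-receptor, had 36.9, 40.9 and 41.0 CPM in PD-1 hybrids, against 53.3, 52.5 and 53.4 CPM in plain DSLB hybrids. The log2 fold change was −0.42 (standard error 0.10, edgeR quasi-likelihood adjusted p = 0.00364). The groups did not overlap, with 3 of 3 PD-1 hybrids below every plain DSLB hybrid. How many of all genes also did not overlap was not counted, so nothing is read from such gaps here or below. DSLB-free tumoroids had 54.5, 45.4 and 55.7 CPM, of which replicate 2, the library that stood apart, was the lowest. Of the 9 genes tested in this comparison LRP6 was the only one called, 1 of 9, where 22.0% of all 18424 genes were called, 11.3% higher and 10.7% lower. LRP6 kept its call when any single PD-1 or plain DSLB library was left out.

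The same low level was seen with every second protein. The 24 PD-1-bearing libraries had 31.2 CPM of LRP6 at the lowest, 38.9 at the median and 45.7 at the highest (PD-1/CD2 replicate 1), all below the plain DSLB hybrids. Group means ran from 36.1 ± 5.62 CPM with CTLA4 to 41.7 ± 2.69 CPM with ICOS (SD, n = 3 each). Per length the gap was wider, with 5.74 to 9.69 TPM in the PD-1-bearing libraries, 14.0 to 15.9 TPM in plain DSLB hybrids and 13.5 to 15.2 TPM in DSLB-free tumoroids. The effective length assigned to LRP6, which follows the estimated mix of its transcripts, moved with this, at 5925 to 8203 bases in the PD-1-bearing libraries, 5223 to 5979 bases in plain DSLB hybrids and 5092 to 6087 bases in DSLB-free tumoroids. On log2(TPM + 0.5) the fold change was −0.70 in PD-1 hybrids (limma adjusted p = 0.00125) and −0.81 in the mean of the 8 PD-1-bearing groups, both over plain DSLB hybrids. The whole table was shifted down on this scale, with medians of all genes at −0.11 and −0.09 in these comparisons. LRP6 overlaps BCL2L14 on the other strand, as WLS overlaps GNG12-AS1, CTNNB1 ULK4 and LGR4 LGR4-AS1, and since no source used here gives the strand setting of the counting, reads of such pairs cannot be told apart.

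The comparison of the mean of all 8 PD-1-bearing groups with plain DSLB hybrids was added after the data had been seen, and it shares the plain DSLB libraries with the comparison above. In it 6 of 9 genes were called, where 36.9% of all genes were called, 18.2% higher and 18.7% lower. LRP6 had a log2 fold change of −0.45 (standard error 0.07, edgeR adjusted p = 2.49e-05), LRP5 of −0.18 (0.00929), CTNNB1 of −0.14 (0.0148), AXIN2 of −0.23 (0.0262) and ZNRF3 of −0.16 (0.036), with the edgeR adjusted p in parentheses. PORCN was higher by 0.18 (edgeR adjusted p = 0.028). Only LRP6 held under every alternative and every left-out library. Without plain DSLB replicate 1 the called genes were CTNNB1 and LRP6, without replicate 2 LRP5 and LRP6, and without replicate 3 AXIN2, LRP6 and ZNRF3. LGR4, RNF43 and TCF7L2 had log2 fold changes of 0.15, −0.12 and 0.04 and did not pass.

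These fold changes went with gene length across the whole table. Genes with a mean effective length under 1000 bases had a median log2 fold change of 0.16 in the mean of the 8 groups over plain DSLB hybrids, and genes of 4000 bases or more had −0.17. In PD-1 over plain DSLB hybrids these medians were 0.15 and −0.15. With the length trend removed, LRP6 was still lower, by −0.21 in PD-1 hybrids (edgeR adjusted p = 0.0138) and by −0.23 in the mean of the 8 groups (edgeR adjusted p = 0.000214). LGR4, the R-spondin receptor (chr11:27365961-27472790, minus strand), was then called higher, by 0.35 and 0.33 (edgeR adjusted p = 0.00093 and 5.8e-05), while AXIN2, CTNNB1, LRP5, PORCN and ZNRF3 no longer passed and ZNRF3 turned to 0.05. LGR4 had 166, 165 and 158 CPM in PD-1 hybrids, against 146, 141 and 142 CPM in plain DSLB hybrids, groups that did not overlap in CPM. Per length they overlapped, with 46.2, 47.6 and 46.1 TPM in PD-1 hybrids against 46.5, 44.9 and 45.5 TPM in plain DSLB hybrids. On log2(TPM + 0.5) LGR4 did not pass in either comparison, with fold changes of 0.03 and 0.02 (limma adjusted p = 0.891 and 0.915). Marker genes moved in the same contrast of PD-1 over plain DSLB hybrids. Of the 6 epithelial markers 5 passed the edgeR test, in both directions, where 22.0% of all genes were called. The adhesion protein CDH1 had a log2 fold change of −0.73 and EPCAM of −0.33. The keratins KRT8, KRT18 and KRT19 had 0.49, 0.52 and 0.90, and KRT7, with 0.20, did not pass. The 2 mesenchymal markers ran opposite ways, VIM with 0.45 (edgeR adjusted p = 1.74e-05) and the cadherin CDH2 with −0.22 (0.075), and CDH2 passed at −0.21 in the mean of the 8 groups (edgeR adjusted p = 0.014). Their sum, nearly all VIM, was 2390 to 3020 TPM in PD-1-bearing libraries, 2290 to 2380 TPM in plain DSLB hybrids and 2170 to 2350 TPM in DSLB-free tumoroids. COL1A1 had −0.57, a call lost with the length trend removed. The part of these markers in the values of the Wnt genes was not tested.

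**Figure D2:**
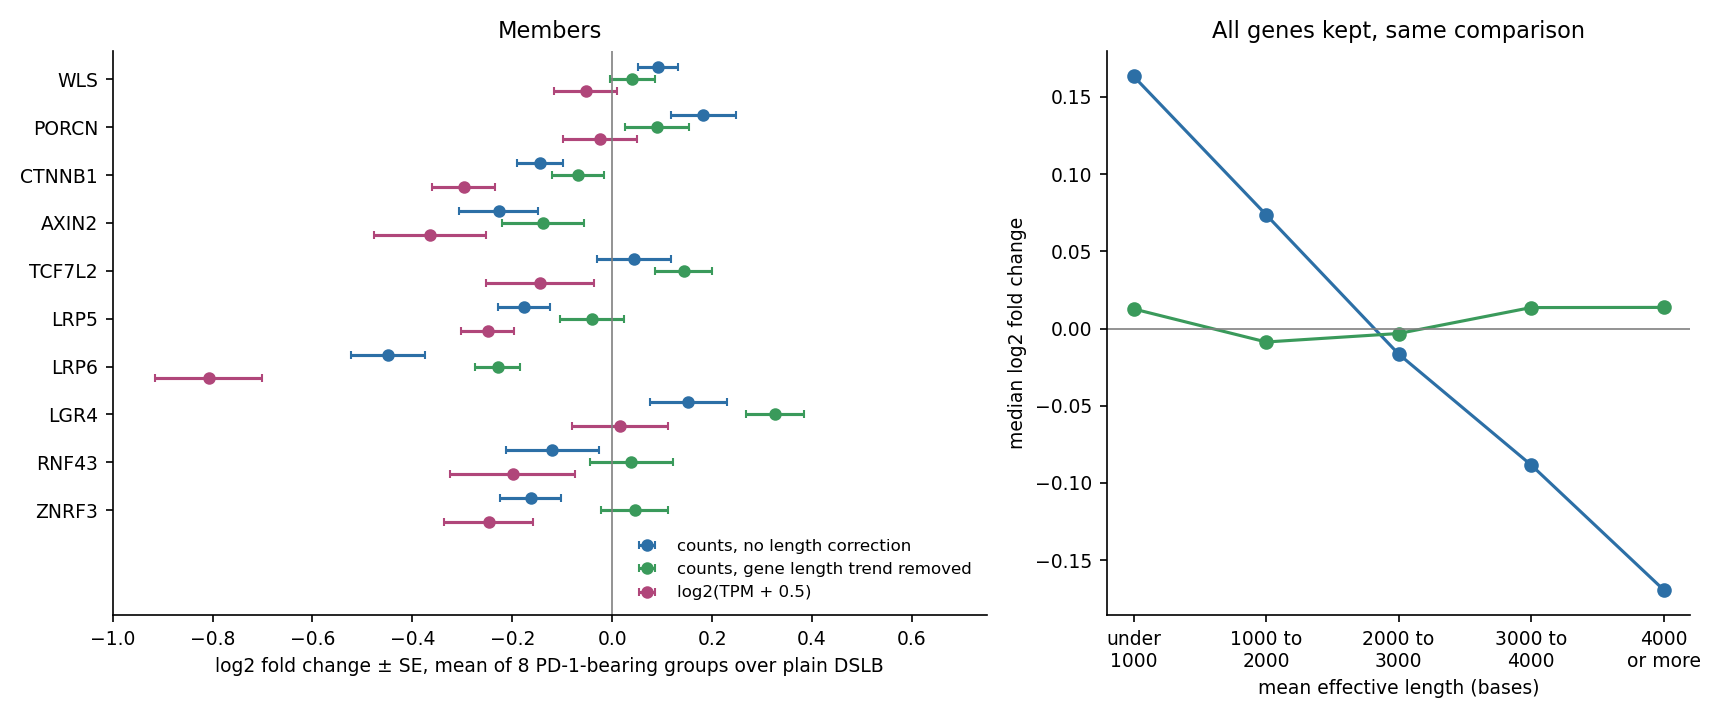
Left, log2 fold change with standard error of each gene in the mean of the 8 PD-1-bearing groups over plain DSLB hybrids, from counts (blue), from counts with the gene length trend removed (green) and on log2(TPM + 0.5) (purple). Right, median log2 fold change of all genes by mean effective length, from 0.16 under 1000 bases to −0.17 at 4000 bases or more before the trend was removed; LRP6 is below 0 in all 3 settings, and PORCN and ZNRF3 are on both sides of 0.

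The values behind the smaller differences were as follows. PORCN, the acyltransferase of Wnt proteins (chrX:48508959-48520814, plus strand), ranged from 7.90 to 10.9 CPM with a median of 9.04 in the PD-1-bearing libraries, against 8.001, 8.13 and 7.97 CPM in plain DSLB hybrids. The ranges overlapped at 1 library, PD-1/TIGIT replicate 3. On log2(TPM + 0.5) the direction of PORCN turned, to −0.02. CTNNB1, β-catenin itself (chr3:41194741-41260096, plus strand), ranged from 233 to 304 CPM with a median of 276 in the PD-1-bearing libraries, against 297, 309 and 305 CPM in plain DSLB hybrids. AXIN2, a scaffold of the destruction complex and a Wnt target gene (chr17:65528563-65561648, minus strand), had 3.38 to 5.01 CPM with a median of 4.13, against 4.98, 5.00 and 4.46 CPM in plain DSLB hybrids. The PD-1-bearing and plain DSLB values of CTNNB1 and AXIN2 overlapped, and in DSLB-free tumoroids CTNNB1 had 288, 287 and 303 CPM and AXIN2 5.34, 4.62 and 4.99 CPM. At such levels AXIN2 rested on 89 to 282 counts per library. A gene that shares its strand and position with AXIN2, and another with RNF43, could divide reads with them.

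Among the 8 PD-1-bearing groups, LRP5 was the only one of the 10 genes to pass an edgeR test of any difference (adjusted p = 0.0143), where 2.88% of all genes were called. LRP5 had 435, 430 and 427 CPM in PD-1/ICOS hybrids and 355, 346 and 327 CPM in PD-1/TIGIT hybrids, which were the groups with the highest and lowest means. PD-1/LAG3, PD-1/CD40L and PD-1/CTLA4 hybrids averaged 413 ± 24.2, 409 ± 28.8 and 396 ± 26.8 CPM, PD-1 hybrids 381 ± 9.27 CPM, and PD-1/CD2 and PD-1/CD27 hybrids 349 ± 18.9 and 345 ± 12.6 CPM (SD, n = 3 each). Between neighbors in that order the gap was larger than the larger SD only at the step between PD-1 and PD-1/CD2 hybrids. LRP5 kept its call when any of the 24 libraries was left out (edgeR adjusted p 0.00738 to 0.0412) and lost it on log2(TPM + 0.5) with limma (adjusted p = 0.0729). Plain DSLB hybrids, at 443, 410 and 442 CPM, lay near the PD-1/ICOS hybrids, and DSLB-free tumoroids had 451, 543 and 446 CPM, of which the highest was replicate 2, the library that stood apart.

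Against PD-1 hybrids, 0 of 10 genes were called by edgeR with any second protein. All genes called there made up 1.23% with CD2, 2.29% with CD27, 0.0109% with CD40L, 0.0434% with CTLA4 and 0.0% with ICOS, LAG3 and TIGIT, comparisons that all share the PD-1 libraries. Where edgeR called 0 genes, DESeq2 called 13, 7 and 1 with ICOS, LAG3 and TIGIT. An unadjusted p under 0.05 was found for 1 or 2 of the 10 genes in each comparison. Over all 18424 genes it was found for 2833 with CD2, 3134 with CD27, 2091 with CD40L, 2445 with CTLA4, 1880 with ICOS, 1052 with LAG3 and 681 with TIGIT, so that nothing is read from 1 or 2 of 10. The standard errors of the 10 genes were between 0.05 and 0.13 on the log2 scale.

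AXIN2 was nearest to a call with CD2. It had 3.38, 3.44 and 4.06 CPM in PD-1/CD2 hybrids, against 4.45, 4.47 and 5.01 CPM in PD-1 hybrids, with no overlap in CPM. In TPM they overlapped, at 1.43, 1.26 and 1.71 against 1.65, 1.80 and 2.32. The log2 fold change from counts was −0.36 (standard error 0.11, edgeR adjusted p = 0.0904), and the other second proteins gave −0.04 to −0.21. With CD2, DESeq2 gave an adjusted p of 0.0684 on all libraries and 0.524 on the compared groups. On log2(TPM + 0.5) the fold change with CD2 was −0.30 (limma adjusted p = 0.392). CTNNB1 had log2 fold changes of −0.15, −0.17, −0.17 and −0.16 with CD2, CD27, CD40L and CTLA4 (edgeR adjusted p 0.159 to 0.317). It had 281, 270 and 241 CPM in PD-1/CD2 hybrids, 266, 275 and 245 CPM in PD-1/CD27 hybrids, 277, 275 and 233 CPM in PD-1/CD40L hybrids, and 263, 268 and 255 CPM in PD-1/CTLA4 hybrids, against 304, 291 and 286 CPM in PD-1 hybrids. In CPM none of these cultures reached the level of a PD-1 hybrid. In TPM they overlapped, with PD-1/CD2 replicate 1 (138 TPM) above PD-1 replicate 3 (134 TPM). With the length trend removed CTNNB1 was called with CD27 (−0.22, edgeR adjusted p = 0.0467). In that fit 1262 of all genes were called with CD27, 493 higher and 769 lower with a median of all genes at −0.06, against 421 called without the correction, 378 higher and 43 lower. DESeq2 on the compared groups alone called CTNNB1 and LRP5 with CD27 and LRP5 with ICOS.

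ZNRF3, a ligase that removes Frizzled (chr22:28883572-29057488, plus strand), had 10.0, 10.6 and 9.62 CPM in PD-1/ICOS hybrids, against 8.35, 8.55 and 8.83 CPM in PD-1 hybrids. The groups did not overlap, and the log2 fold change of 0.23 had an edgeR adjusted p of 0.388. LRP5 had a log2 fold change of 0.18 with ICOS (edgeR adjusted p = 0.412) and of −0.15 with TIGIT (edgeR adjusted p = 1.0). PORCN had 10.0, 8.95 and 10.9 CPM in PD-1/CTLA4 hybrids, against 8.40, 8.48 and 8.98 CPM in PD-1 hybrids, a log2 fold change of 0.21 (edgeR adjusted p = 0.305) with overlapping values. RNF43, the other Frizzled ligase (chr17:58353676-58417595, minus strand), was within −0.13 to 0.19 and TCF7L2, the nuclear partner of β-catenin (chr10:112950247-113167678, plus strand), within −0.11 to 0.14 of PD-1 hybrids. WLS had the narrowest range, between −0.10 and 0.04 with standard errors of 0.05, and LRP6 between −0.13 and 0.08 with standard errors of 0.10.

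**Figure D3:**
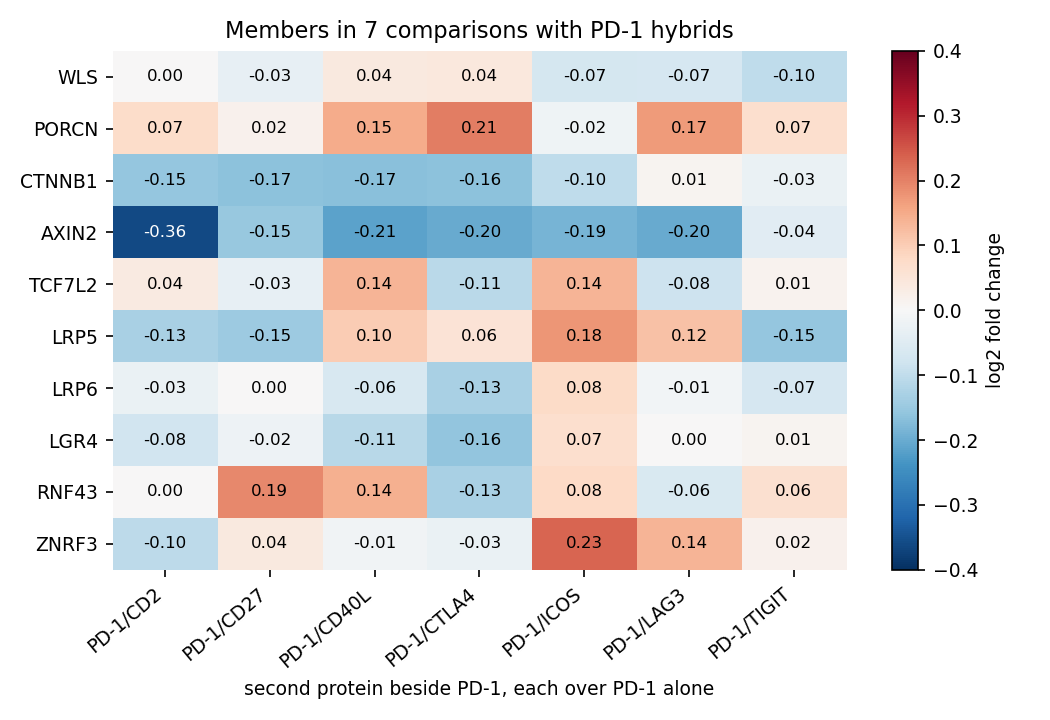
Log2 fold change of each gene in each of the 7 groups with a second protein over PD-1 hybrids (color scale −0.4 to 0.4). None passed an edgeR adjusted p of 0.05; the value farthest from 0 is AXIN2 with CD2 at −0.36.

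The spread within the PD-1-bearing libraries differed among the genes. WLS was the steadiest, its highest library at 1.18 times its lowest, and TCF7L2 the most variable at 1.56 times. TCF7L2 had 44.7, 41.9 and 54.0 CPM in PD-1/CD40L hybrids and 37.8, 46.0 and 34.5 CPM in PD-1/CTLA4 hybrids, so that replicates of a group lay as far apart as groups did. LGR4 had 186, 150 and 127 CPM in PD-1/CD2 hybrids, which span the whole range of the 24 libraries. RNF43 was between 6.89 and 10.2 CPM in the PD-1-bearing libraries, with 9.99, 9.87 and 8.54 CPM in plain DSLB hybrids and 8.60, 7.64 and 7.09 CPM in DSLB-free tumoroids.

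**Figure D4:**
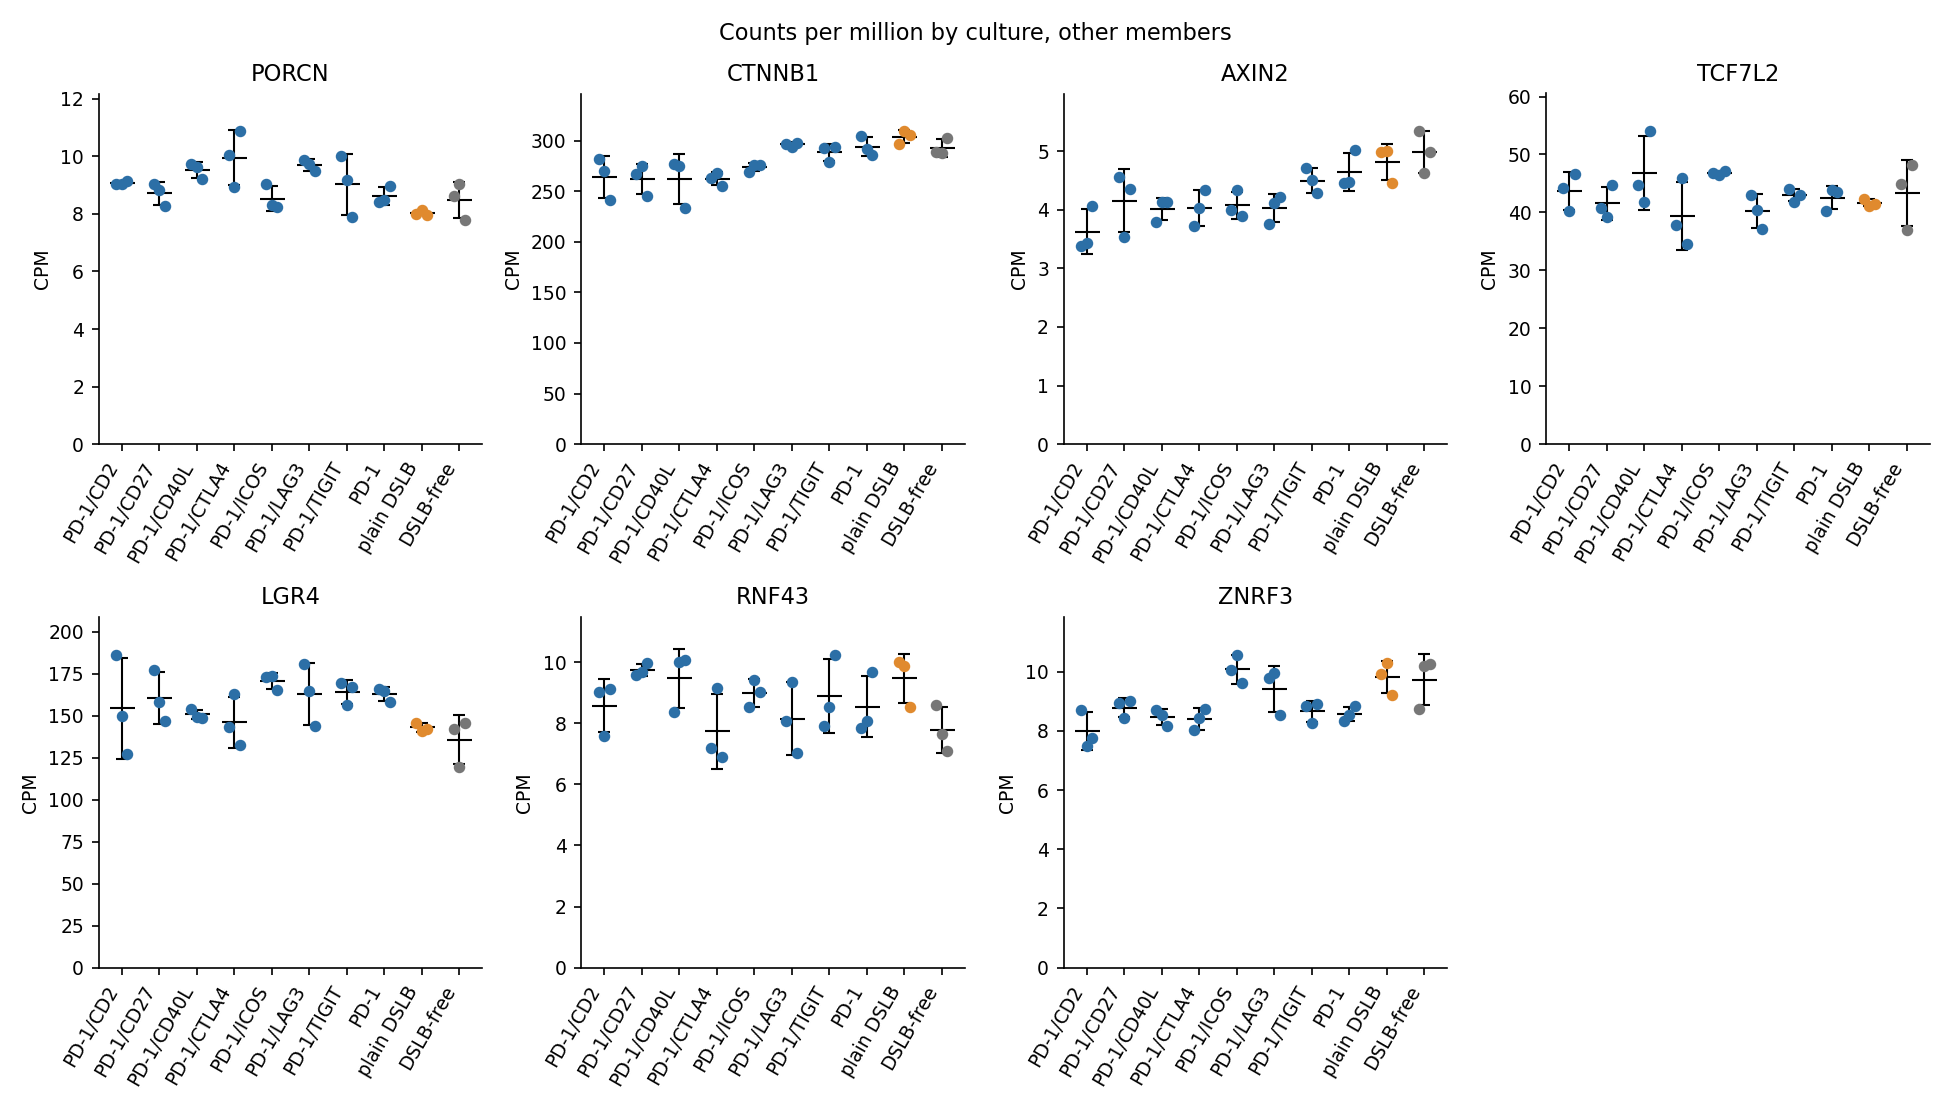
CPM (TMM-scaled) of the other 7 genes in each of the 30 cultures by group, with the mean and SD of 3 replicates as black marks. CTNNB1 is at or above 286 CPM in all PD-1 hybrids and at or below 281 CPM in all PD-1/CD2, PD-1/CD27, PD-1/CD40L and PD-1/CTLA4 hybrids, AXIN2 lies between 3.38 and 5.34 CPM, and replicates of TCF7L2, LGR4 and RNF43 spread widely.

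The pattern of WLS over the 30 libraries was most like that of OPTN, ATP1B1, PLP2, DNASE1L1 and ELOVL1, with Pearson correlations of log2 CPM between 0.844 and 0.853 among 13840 genes. ATP1B1, a subunit of the sodium pump, averaged 125 CPM in the PD-1-bearing libraries, 89.1 CPM in plain DSLB hybrids and 78.7 CPM in DSLB-free tumoroids. Within the 24 PD-1-bearing libraries the nearest genes were others, APLP2 at 0.751, P4HA2, APP, PAM and SP100. Of the listed genes LRP6 ran most against WLS over the 30 libraries (−0.592), and LGR4 most with it (0.38). The libraries share their groups, so these correlations are a description.

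Of the wider Wnt pathway, 97 further genes were listed and 81 were kept by the filter. In the mean of the 8 PD-1-bearing groups over plain DSLB hybrids 12 of them were called higher and 24 lower (44.4%, beside 36.9% of all genes). In PD-1 over plain DSLB hybrids 9 rose and 13 fell by edgeR, 27.2% of those kept beside 22.0% of all genes, with a median log2 fold change of −0.02 beside −0.0043 over all genes. The list was drawn up with earlier results of these libraries known.

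Among the Wnt ligands 3 of 12 were called (25.0%, beside 22.0% of all genes). WNT9A, the ligand with the highest TPM, rose by 0.25 (83.3 ± 4.64 CPM in PD-1 hybrids, 70.0 ± 0.246 CPM in plain DSLB hybrids), WNT7B rose by 0.22 and WNT11, at about 1 CPM, fell by 0.50 on the log2 scale. WNT9A did not pass without PD-1 replicate 2 or on log2(TPM + 0.5), and WNT7B and WNT11 each lost the call without any of 4 single libraries. Their folds stayed about as large without the libraries that stood apart, 0.19 for WNT7B and −0.58 for WNT11 (edgeR adjusted p = 0.0797 and 0.0504). WNT7B lost the call under 5 of 10 alternatives, among them log2(TPM + 0.5), where its fold was 0.09 (limma adjusted p = 0.553). WNT11 lost it under 5 of 9, among them DESeq2 (adjusted p = 0.0912 on all libraries and 0.245 on the compared groups). Of the 7 genes of Wnt export and WLS recycling, SNX3, a sorting nexin that returns WLS from endosomes, rose by 0.34 (291 ± 6.91 CPM in PD-1 hybrids, 230 ± 6.76 CPM in plain DSLB hybrids, edgeR adjusted p = 0.00223). The retromer subunits VPS26A and VPS29 (0.07 and −0.04) and the cargo receptor TMED2 (−0.04) did not pass.

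Among Frizzled and other Wnt receptors 5 of 13 were called (38.5%, beside 22.0% of all genes). FZD7 rose by 0.73 (28.8 ± 1.65 CPM in PD-1 hybrids, 17.4 ± 0.56 CPM in plain DSLB hybrids, edgeR adjusted p = 5.16e-08). FZD4, FZD8 and FZD1 had log2 fold changes of −0.39, −0.37 and −0.37 and lost the call with the length trend removed, and FZD1 also without a filter and without either of 2 single libraries. The co-receptor ROR1, named after its values were seen, had 0.37 and lost the call without any of 5 single libraries. LGR6, a relative of LGR4, fell to 2.53 ± 0.0971 CPM in PD-1 hybrids, against 5.31 ± 0.371 CPM in plain DSLB hybrids (log2 fold change −1.07, edgeR adjusted p = 6.79e-07), while LGR5, the stem cell receptor of the family, was under 1 CPM. The R-spondins were near 0: RSPO4 had 0.42 ± 0.156 CPM in PD-1 hybrids, and RSPO1, RSPO2 and RSPO3 were removed by the filter, with at most 13 counts in any library.

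Of 11 secreted and surface inhibitors 2 were called (18.2%, beside 22.0% of all genes), so nothing is read from the count. These were SFRP1 and SFRP5, which bind Wnt proteins, and both fell. SFRP1 had 20.8 ± 1.05 CPM in PD-1 hybrids and 27.4 ± 0.675 CPM in plain DSLB hybrids (log2 fold change −0.40, edgeR adjusted p = 0.000377), and SFRP5 had 1.22 ± 0.188 CPM in PD-1 hybrids and 2.97 ± 0.205 CPM in plain DSLB hybrids (−1.28, edgeR adjusted p = 3.14e-05). DKK1, a ligand of LRP5 and LRP6 that blocks Wnt signaling, was the inhibitor with the highest TPM and had 507 ± 59.99 CPM in PD-1 hybrids and 502 ± 30.5 CPM in plain DSLB hybrids (0.01, edgeR adjusted p = 0.927), and DKK3 had −0.02. Of 14 genes of Dishevelled proteins and of the destruction complex 2 were called (14.3%, beside 22.0% of all genes), so again nothing is read from the count. DVL2, a Dishevelled protein, rose by 0.22, a call lost on log2(TPM + 0.5), without a filter and without any of 3 single libraries. AMER1, a partner of APC, had −0.32, a call lost with the length trend removed and without any of 5 single libraries (edgeR adjusted p 0.0546 to 0.0936), while the kinases CSNK1A1 and CSNK1D (0.16 and −0.01) did not pass.

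Among nuclear factors 6 of 12 were called, where 22.0% of all genes were called. All of these except TLE2 lost the call without a single library and under an alternative, so nothing is read from the count. TLE2, a corepressor, fell by 0.52 on the log2 scale (9.35 ± 0.811 CPM in PD-1 hybrids, 13.5 ± 1.80 CPM in plain DSLB hybrids, edgeR adjusted p = 0.00135). TCF7L1, a repressive TCF factor, rose by 0.31 but did not pass without plain DSLB replicate 2 or on log2(TPM + 0.5). PYGO1, a co-activator of β-catenin, and TLE4, another corepressor, had −0.47 and −0.27, calls lost with the length trend removed, on log2(TPM + 0.5) and without any of 3 (PYGO1) or 4 (TLE4) single libraries. TLE3 (0.22) and LEF1 (−1.42, under 1 CPM) are named after their values were seen and lost the call without 4 and 6 single libraries. Of 9 Wnt target genes 2 were called (22.2%, beside 22.0% of all genes). NKD2, a feedback inhibitor, rose by 0.72 (8.02 ± 0.35 CPM in PD-1 hybrids, 4.91 ± 0.484 CPM in plain DSLB hybrids, edgeR adjusted p = 1.23e-05). TNFRSF19, a receptor of the TNF family, fell to 3.32 ± 0.486 CPM in PD-1 hybrids, against 7.16 ± 0.349 CPM in plain DSLB hybrids (−1.10, edgeR adjusted p = 6.1e-06). CD44, the surface glycoprotein, was the target with the highest TPM, at 1255 ± 52.4 CPM in PD-1 hybrids and 1162 ± 58.8 CPM in plain DSLB hybrids (0.11, edgeR adjusted p = 0.377). FZD7, SNX3, LGR6, SFRP1, SFRP5, TLE2, NKD2 and TNFRSF19 kept their calls under each alternative that included them and each left-out library. SFRP5 was included in 9 of 10 alternatives.

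**Figure D5:**
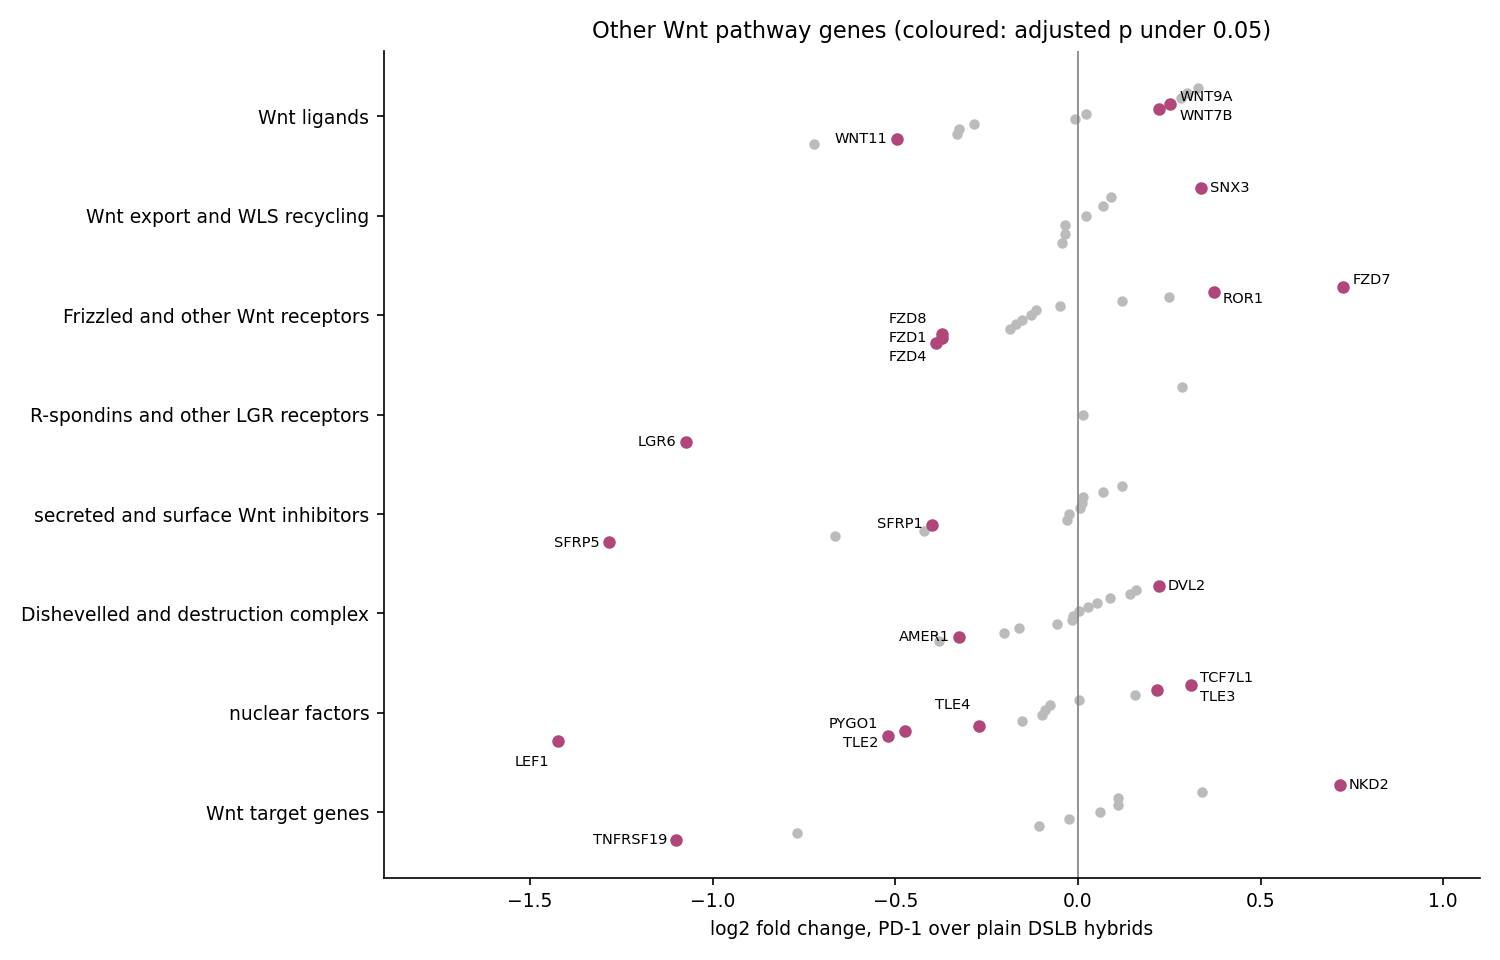
Log2 fold change of each of the 81 other Wnt pathway genes in PD-1 over plain DSLB hybrids, by list, with the 22 called genes in purple and named and the others in gray. FZD7 (0.73) and NKD2 (0.72) are farthest to the right, and LEF1 (−1.42), SFRP5 (−1.28), TNFRSF19 (−1.10) and LGR6 (−1.07) farthest to the left.

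Among the PD-1-bearing groups, 2 of these 81 genes differed by the edgeR test of any difference (2.47%, beside 2.88% of all genes), so nothing is read from the count. EPHB3, a Wnt target among the ephrin receptors (adjusted p = 0.00523), averaged 7.80 ± 0.523 CPM in PD-1/CD27 hybrids and 11.7 ± 1.34 CPM in PD-1/TIGIT hybrids. It was lower with CD27 than in PD-1 hybrids, which had 10.0 ± 0.442 CPM (log2 fold change −0.36, edgeR adjusted p = 0.041), a call lost when any single library of the pair was left out. TCF7L1 (adjusted p = 0.0306) lost its call without any of 6 single libraries of PD-1/CD27, PD-1/ICOS or PD-1/TIGIT hybrids, and neither gene passed on log2(TPM + 0.5) with limma.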

How the data were processed

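RNA-seq libraries (NEBNext Ultra II Directional, single reads) of 30 PANC-1 cultures were processed by the authors with FastQC 0.11.2, SAMtools 1.3.1, Trim Galore 0.3.3, STAR and RSEM on hg38, per the submitters' processing notes. No source used here gives the annotation release, the RNA selection step or whether counting used strand. Per the file headers, the authors deposited expected counts (estimated read counts per gene, not normalized) and TPM values for each library, with the effective length and the posterior SD of the count.

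After rounding of the expected counts, filterByExpr kept 18424 of 60483 genes, and these were scaled by TMM and tested with edgeR 4.0.16 (quasi-likelihood, robust) in 1 model of 30 libraries that gave each group its own mean (p adjusted by Benjamini-Hochberg over all genes kept, threshold 0.05). Of the identifiers, 56321 were matched to a symbol. Alternatives were DESeq2 1.42.0, edgeR on the compared groups, another scaling, other filters, limma 3.58.1 on log2(TPM + 0.5), removal of a length trend, a replicate block and leaving out libraries (R 4.3.3). Figures were drawn with Python 3.11.15 and matplotlib 3.10.9. Positions are those of GENCODE v44. The test was checked on simulated data.

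The genes and lists were chosen with earlier results of these data known. All 10 genes were named in every comparison. Of each pathway list, up to 4 were named, those past the test first and then those with the highest TPM, and the 5 genes most like WLS with a mean count of at least 50. Counting precision follows from 21904000 to 60506700 counted reads per library. The labels call the replicates biological, and by the study's methods all conditions were set up as parallel biological replicates of the 1 cell line, so p-values measure the spread between these cultures.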

Additional observations from a re-analysis of the deposited data

How the results depend on the processing

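Of the 10 genes, 0 were called over PD-1 hybrids with CD2, CD40L, CTLA4, LAG3 or TIGIT under any alternative run. With CD27 over PD-1 hybrids, 2 were called by DESeq2 on the compared groups and 1 with the length trend removed, and with ICOS 1 by DESeq2 on the compared groups, against 0 by edgeR. In PD-1 over plain DSLB hybrids (1 by edgeR), 2 were called by DESeq2 on all libraries, 3 by DESeq2 and 3 by edgeR on the compared groups, 2 with the length trend removed, 2 on log2(TPM + 0.5) and 3 at a mean count of at least 100. Among the PD-1-bearing groups (1 by edgeR), DESeq2 called 3 in both forms, limma on log2(TPM + 0.5) called 0, and 3 were called without the libraries that stood apart. In the mean of the 8 groups over plain DSLB hybrids (6), 2 were called with the length trend removed, 2 without a filter, 5 by DESeq2 in both forms and on log2(TPM + 0.5), where PORCN was lost, and 2 to 6 with 1 library left out. PORCN turned to −0.0247 on log2(TPM + 0.5) and ZNRF3 to 0.0452 with the length trend removed, where the cause was not tested. The main model did not pair libraries by replicate number. Little pairing was seen (3 of 27 pairs had correlated deviations over 0.1, and 13 of 30 libraries correlated best with their own number). The mean correlation of deviations was 0.0104 for the same number and −0.0052 for different numbers. This check does not settle whether the cultures were set up as pairs. The replicate block changed no call of the 10 genes, with 1 in PD-1 over plain DSLB hybrids.

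Over all genes, leaving out 1 library gave 5 to 537 calls with CD2 (227), 21 to 654 with CD27 (421), 1 to 12 with CD40L (2), 1 to 63 with CTLA4 (8) and 215 to 1169 among the PD-1-bearing groups (530). DESeq2 on all libraries called 533, 799, 112 and 85 with CD2, CD27, CD40L and CTLA4, and 17 in plain DSLB hybrids over DSLB-free tumoroids (2). On log2(TPM + 0.5), 857 rose and 2773 fell in PD-1 over plain DSLB hybrids, with the median of all genes at −0.11, against 2084 and 1970 by edgeR. Precision over PD-1 hybrids was lowest for RNF43, with standard errors of 0.12 to 0.13 on the log2 scale.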
